A study of Mus musculus with 51 samples.

Results

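Gene expression in wild-type common myeloid progenitors (CMP) was set against that in wild-type common lymphoid progenitors (CLP), both sorted by flow cytometry from mouse bone marrow. The groups were taken from the sample titles: 5 CMP replicates, 4 of them hybridised in 2 runs that were averaged, and 8 CLP replicates, each on 1 array. These 13 of the 43 replicates of the series came from 17 of its 51 Affymetrix arrays. The rest of the series holds wild-type granulocyte-macrophage progenitors (GMP) and haematopoietic stem cells (HSC), and all 4 populations from mice that carry an Mll-AF9 knock-in, a leukaemia fusion gene. The series was made to find genes that differ between Mll-AF9 cells and their wild-type counterparts, and both groups compared here are its wild-type, unmodified controls. The sources used here give no strain, age, sex, pooling of mice or sorting gates. Whether each replicate is a separate mouse is not stated, so p-values reflect only how far these samples spread, some of which may be technical. CLP replicate 1 carries a source name that refers to CMP, and its title was followed.

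CMP and CLP are neighbouring branches of blood formation. CMP are the progenitors from which granulocytes, monocytes, megakaryocytes and red cells arise, and CLP give rise to B cells, T cells, natural killer cells and some dendritic cells. Erythroid commitment is driven by the transcription factors GATA1 and KLF1, which act through GATA sites and CACC boxes, whereas lymphoid priming runs through the interleukin-7 receptor, FLT3 and E-protein factors before the antigen receptor genes are rearranged. In sorted populations measured in bulk, a lower level can come from fewer cells of a type or from less RNA per cell, and these cannot be told apart.

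Values are log2 RMA intensities, with 1 probe set per gene and 18193 genes. A level below 4.62 was taken as background, and differences are CMP minus CLP unless stated otherwise. The array distributions lay close together, with array medians of 4.18 to 4.22 in CMP and 4.16 to 4.26 in CLP. CMP values carried 9 decimals and CLP values 2, so CMP arrays may have been normalised apart, and an effect of that processing cannot be told apart from the population. The signal of 3-prime over 5-prime control probe sets, a measure of how far the amplified RNA reaches, was 3.19 ± 0.20 (SD, n = 5) in CMP and 3.69 ± 0.21 (SD, n = 8) in CLP, a difference with an exact 2-sided permutation p of 0.005. It was 2.65 to 3.11 in the first CMP runs, 3.56 to 3.75 in the second runs and 3.36 to 3.91 in CLP. The SD of the log2 difference over genes was 0.24 to 0.33 between CMP replicates, 0.35 to 0.76 between CLP replicates and 0.63 to 0.95 between a CMP and a CLP replicate. CLP replicate 1 correlated at 0.970 on average with the other CLP replicates and at 0.948 with CMP, so its values stood with its title. Y-linked genes were at background in CMP replicates 4 and 5 and CLP replicates 4 and 8, so both groups hold samples with and without them.

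CMP and CLP differed in 4460 of 18193 genes. With limma, 2260 genes were called higher in CMP (12.4% of those tested) and 2200 higher in CLP (12.1%), at an adjusted p below 0.05. Each list count below is to be read beside these shares. The larger differences lay on the lymphoid side: 1155 genes were over 2-fold higher in CLP and 737 over 2-fold higher in CMP, and 83 against 40 genes passed 8-fold. For 2761 of the 4460 called genes no CMP replicate overlapped any CLP replicate. Over all 18193 genes, called or not, this held for 2810. The mean of the dimmer group lay below background for 460 of the genes higher in CLP and for 164 of those higher in CMP. For genes of this kind named below, the fold is given as a lower bound, with the dimmer group raised to background. The median difference over all genes was 0.02. Centring each replicate on its own median moved that median to 0.15 and the calls to 3624 higher and 1806 lower, that is 66.7% higher against 50.7% as first computed. With the 3-prime over 5-prime signal as a covariate the counts were 1293 and 1251. With the second run in place of each CMP average they were 1931 and 1973. CMP replicate 5 has 1 run only, and that run stayed in. The control signal of the second runs lay within the CLP range, but that of replicate 5 (2.88) did not.

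**Figure D1:**
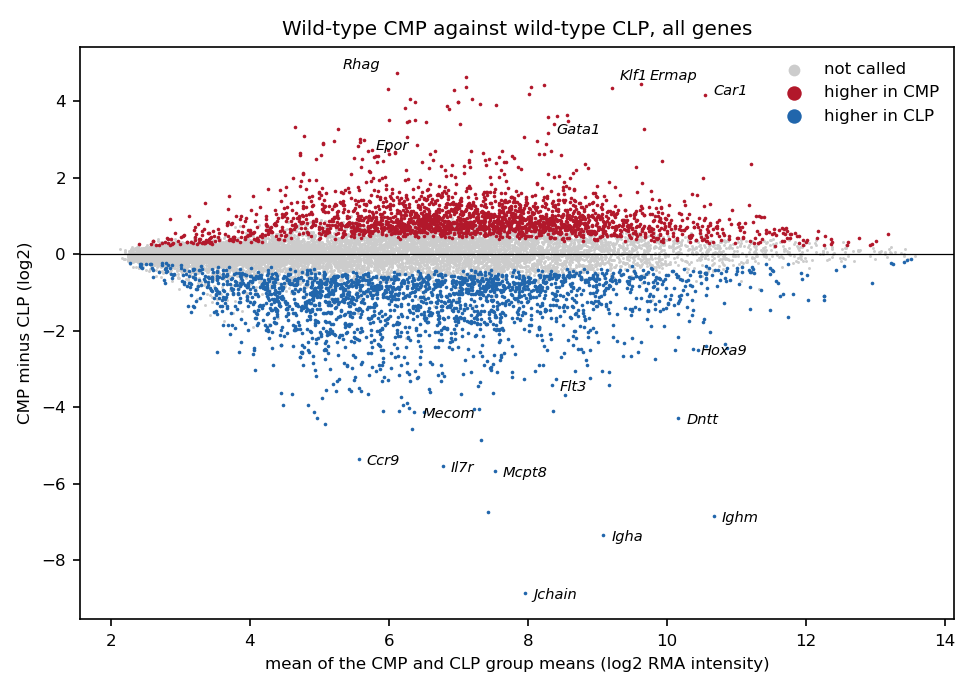
Difference of each gene (vertical axis, CMP minus CLP, log2) against the mean of both group means (horizontal axis, log2 RMA intensity) for 18193 genes. Red points are the 2260 genes called higher in CMP and blue points the 2200 called higher in CLP; the differences reach 4.74 (Rhag) upwards and -8.86 (Jchain) downwards.

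CMP carried an erythroid transcription factor programme at high and even levels. Klf1, a master regulator of red cell genes, read 11.52, 11.37, 11.19, 11.15 and 11.66 in the 5 CMP replicates and 5.10 to 8.72 in CLP, with a CLP median of 7.05. The groups did not overlap, and Klf1 was 20.3-fold higher in CMP (difference 4.35, SE 0.48, adjusted p 4.25e-06). Gata1, the zinc-finger factor that drives erythroid and megakaryocyte genes, read 10.14, 10.02, 10.12, 10.13 and 9.997 in CMP and 5.27 to 7.74 in CLP, median 6.69. It was 11.9-fold higher in CMP (difference 3.58, SE 0.37, adjusted p 1.92e-06). CMP replicates lay close together for both genes, while CLP replicates spread widely, with replicates 6, 7 and 2 the highest.

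Of 13 measured erythroid and megakaryocyte transcription factors, 6 were called higher in CMP and 4 higher in CLP, against 12.4% and 12.1% of all genes, and the list's median difference was 0.33 against 0.02 over all genes. Beside Klf1 and Gata1 the higher ones were Gfi1b (difference 2.32), a repressor needed for both lineages, Zfpm1 (2.20), the GATA1 cofactor FOG1, Ldb1 (1.39), a bridging protein of the GATA1 complex, and Tal1 (1.17), its basic helix-loop-helix partner. The 4 higher in CLP were Fli1 (-1.05), Runx1 (-0.86), Lyl1 and Nfe2. FLI1 and RUNX1 also act in stem cells and megakaryocytes. With the control-probe covariate 1 of the 13 was called higher in CLP, and Fli1 (adjusted p 0.0526), Lyl1 (0.633) and Nfe2 (0.077) lost their calls. Runx1 lost its call on the mean of its probe sets (-0.29, adjusted p 0.377), 2 of which did not share its sign, and Lyl1 did so without CMP replicate 3 or 4. Gata2, the GATA factor of stem cells and early progenitors, was 8.62 ± 0.25 (SD, n = 5) in CMP and 8.74 ± 0.61 (SD, n = 8) in CLP and was not called (adjusted p 0.803).

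Surface and membrane proteins of red cell precursors rose furthest. Of 17 measured red cell membrane and surface genes, 14 were called higher in CMP and 0 higher in CLP, with a list median of 2.62. Rhag, which encodes the Rh-associated glycoprotein, had the largest difference of all named genes on the CMP side. It read 7.93, 8.38, 8.63, 8.78 and 8.68 in CMP and 2.73 to 4.82 in CLP, median 3.75, at least 14.1-fold higher in CMP (difference 4.74, SE 0.33, adjusted p 2.71e-08). Ermap, an erythroblast adhesion protein, read 11.66, 11.72, 12.03, 11.95 and 11.91 against 5.43 to 9.18, median 7.80, and was 21.7-fold higher. Both genes were above every CLP value in every CMP replicate. Aqp1, the water channel of the red cell membrane, was 21.6-fold higher (10.45 ± 0.16 against 6.01 ± 0.99, SD, n = 5 and 8). Kel, the Kell blood group protease, was at least 10.9-fold higher and Rhd, the Rh blood group protein, reached a difference of 3.78. Epor, the erythropoietin receptor, read 7.85, 7.87, 7.76, 7.81 and 8.19 in CMP and 4.95 to 5.99 in CLP, median 5.17, which is 6.15-fold higher (SE of the log2 difference 0.19, adjusted p 4.01e-08). Tfrc, the transferrin receptor that takes up iron, was high in both groups and 1.42 log2 units higher in CMP. Without CLP replicates 6 and 7 the same 14 genes were called, and with the control-probe covariate 10 of 17 were.

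The promoter stretches of 4 of these genes are shown for the GATA site, the sequence that GATA factors bind, and the 4 were chosen because they hold a match. Each is the 250 bases upstream of the RefSeq start site (GRCm38.p6), 5′ to 3′ on the strand of the gene, with matches to AGATAA or TGATAA on either strand in capitals. Klf1 lies at chr8:84901732-84901981 (+), Rhag at chr17:40810899-40811148 (+), Ermap at chr4:119189996-119190245 (-) and Epor at chr9:21963577-21963826 (-).
Klf1: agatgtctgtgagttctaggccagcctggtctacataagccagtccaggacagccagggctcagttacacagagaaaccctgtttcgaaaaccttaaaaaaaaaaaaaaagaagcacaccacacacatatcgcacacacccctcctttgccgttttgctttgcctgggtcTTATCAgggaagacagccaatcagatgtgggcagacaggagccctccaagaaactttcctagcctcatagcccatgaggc
Rhag: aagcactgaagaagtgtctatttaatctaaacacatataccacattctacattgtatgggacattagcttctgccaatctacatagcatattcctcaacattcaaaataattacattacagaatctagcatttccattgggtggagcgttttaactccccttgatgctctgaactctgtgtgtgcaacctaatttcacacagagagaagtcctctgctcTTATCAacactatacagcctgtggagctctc
Ermap: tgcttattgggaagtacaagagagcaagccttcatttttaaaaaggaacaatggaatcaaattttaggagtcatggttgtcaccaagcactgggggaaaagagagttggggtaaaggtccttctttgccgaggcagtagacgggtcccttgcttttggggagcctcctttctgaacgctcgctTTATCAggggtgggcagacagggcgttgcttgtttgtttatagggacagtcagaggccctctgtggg
Epor: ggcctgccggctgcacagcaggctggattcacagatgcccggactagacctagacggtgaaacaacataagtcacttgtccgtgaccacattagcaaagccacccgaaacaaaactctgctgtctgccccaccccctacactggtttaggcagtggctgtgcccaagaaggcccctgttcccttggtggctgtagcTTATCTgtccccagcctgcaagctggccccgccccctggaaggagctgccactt
Each of the 4 holds 1 match, in the reverse orientation to the gene, ending 75 (Klf1), 26 (Rhag), 62 (Ermap) and 49 (Epor) bases before the start site. Of the 14 red cell membrane and surface genes called higher in CMP, 10 have an entry in the promoter table; 6 of these hold a match (Epor, Rhd, Rhag, Kel, Ermap and Trim10) and Aqp1, Tfrc, Sptb and Add2 hold none. Gata1 itself holds none. Among the 12 genes with the largest difference towards CMP, 9 have an entry and 5 of these hold such a match (Ces2g, Ermap, Klf1, Rhag and Sphk1). Among the 12 with the largest difference towards CLP, 7 have an entry and 2 of these hold one (Dntt and P2ry10). In the whole table, 18.8% of 27025 genes hold one, and over the tested genes 13.8%. Among all genes called higher in CMP the share was 11.6%, and among those called higher in CLP 13.9%, so the letters did not separate the called groups as a whole. A match describes the letters in the window and not a bound site.

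The other leading CMP genes were of mixed function. Zg16, a secretory granule lectin, was 24.8-fold higher (9.42 ± 0.31 against 4.79 ± 0.60, SD, n = 5 and 8). Sphk1, a sphingosine kinase, was 20.6-fold higher, Atp1b2, a sodium pump subunit, 20.5-fold, Slc38a5, a glutamine transporter, 19.7-fold, and Ces2g, a carboxylesterase, 18.2-fold. Nxpe2 was at least 11.5-fold and Tlcd4 at least 10.8-fold higher. In all 7 the lowest CMP replicate lay above the highest CLP replicate. Car1, carbonic anhydrase 1, was among the brightest CMP genes at 12.63 ± 0.11 and varied in CLP from 6.00 to 10.51, with replicates 6 and 7 the highest. Its difference of 4.15 (SE 0.65, adjusted p 1.44e-04) fell to 2.49 with the control-probe covariate and was then not called (adjusted p 0.0953).

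Enzymes of haem synthesis were higher in CMP in part, while none of the 5 measured globin genes was called. The list held 8 globin genes. Hbb-b1, Hbb-bt and Hbb-bs had no probe set assigned to 1 gene, so their levels are not known here. Of 15 measured globin and haem genes, 7 were called higher in CMP and 0 higher in CLP, with a median of 0.45. Blvrb, biliverdin reductase B, which reduces a haem breakdown product, was 9.03-fold higher (9.87 ± 0.22 against 6.70 ± 0.83, SD, n = 5 and 8, adjusted p 2.35e-06). Alad, which catalyses an early cytosolic step of haem synthesis, read 10.29, 9.95, 9.94, 10.04 and 10.31 in CMP and 7.41 to 8.77 in CLP, median 8.36, and was 3.72-fold higher (adjusted p 5.12e-06). The other 5 called members were Cpox, Fech, Urod, Uros and the mitochondrial carrier Slc25a38. On its 1 probe set Hba-a1, alpha-globin, stayed at background in all 13 replicates, at 3.07 ± 0.13 in CMP and 3.01 ± 0.15 in CLP. Probe sets annotated to more than 1 gene were not used, so this reading cannot show that alpha-globin RNA was absent. Hba-a2, a near-identical copy whose signal cannot be cleanly separated from it, was above background at 5.21 ± 0.20 and 5.14 ± 0.27 (adjusted p 0.845), and the other 3 globins measured (Hbb-b2, Hbb-y and Hba-x) had means below background in both groups. Alas2, the erythroid form of the first enzyme of the pathway, was also at background (3.37 and 3.51), as was Slc4a1, the band 3 anion exchanger (3.38 and 3.84), apart from a value of 7.20 in CLP replicate 8.

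Megakaryocyte genes were raised in part. Of 17 measured platelet and megakaryocyte genes, 7 were called higher in CMP and 1 higher in CLP, with a median of 0.69. Gp5, a platelet von Willebrand receptor subunit, read 7.21, 6.97, 6.01, 6.78 and 7.06 in CMP and 4.09 to 5.57 in CLP, median 4.53 (4.44-fold, adjusted p 9.03e-06). Vwf, the adhesion protein itself, was 3.32-fold higher (8.04 ± 0.45 against 6.30 ± 0.79, adjusted p 0.00111), and Pf4, platelet factor 4, was higher by 1.60. Plek, the platelet substrate of protein kinase C, was the member higher in CLP (8.50 ± 0.49 against 9.18 ± 0.40, adjusted p 0.0340), a call lost in 13 of 29 alternatives. CMP replicate 1 stood apart for late platelet genes: Ppbp read 9.40 there and 3.32 to 4.58 in the other CMP replicates, and Tubb1 8.17 against 4.14 to 4.44. Neither gene was called. The list's mean level was 7.23 in that replicate and 5.57 to 6.05 in the other 4. Without that replicate 4 were called higher in CMP and 1 higher in CLP, and with the control-probe covariate 2 of its genes were called higher in CMP.

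**Figure D2:**
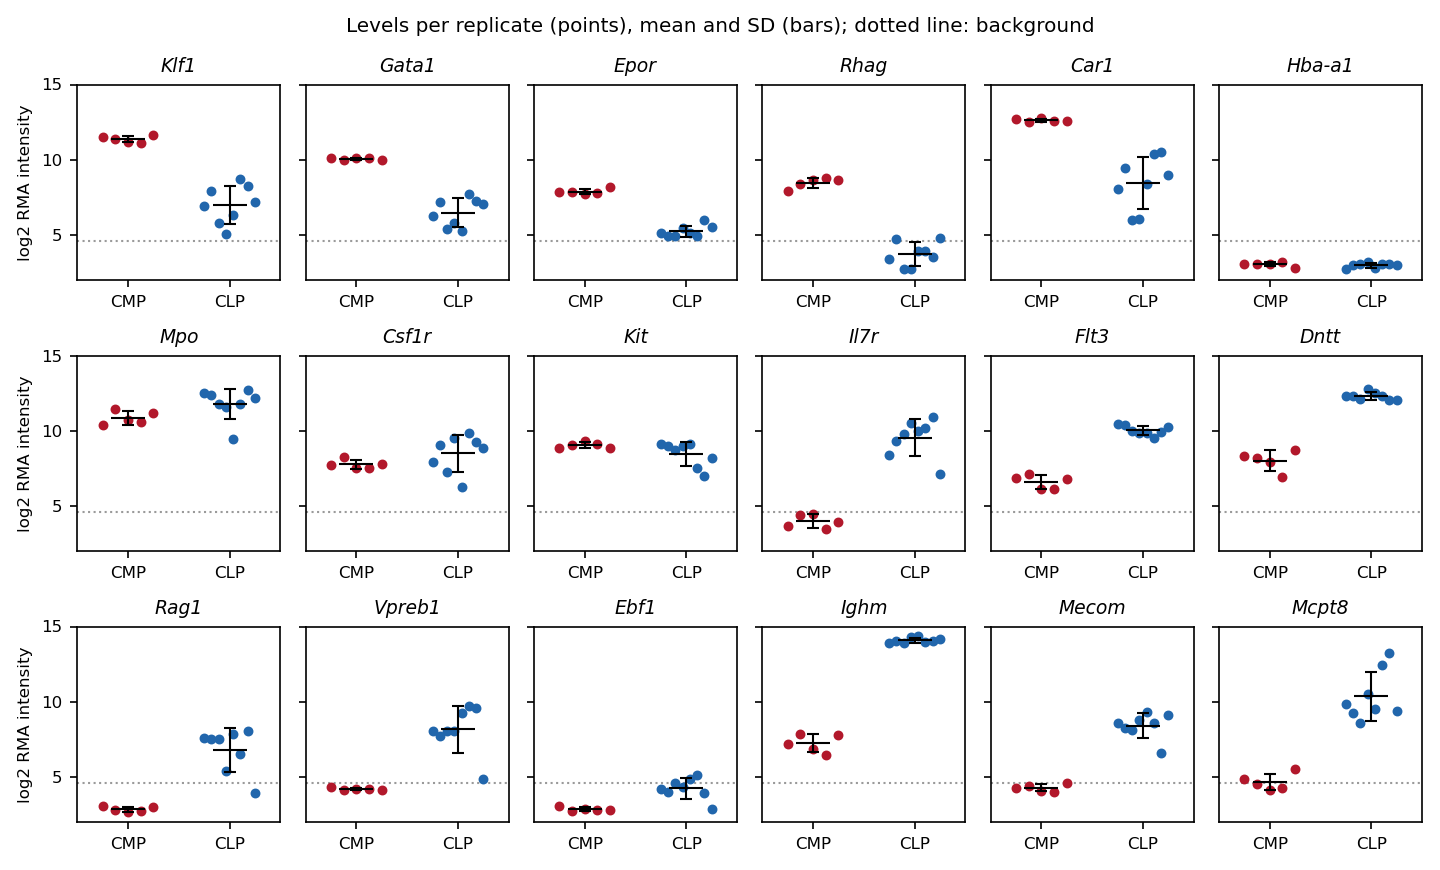
log2 RMA intensity (vertical axis) of 18 genes in each of the 5 CMP (red) and 8 CLP (blue) replicates, with mean and SD bars and the background level of 4.62 dotted. Klf1, Gata1, Epor, Rhag and Car1 sit higher in every CMP replicate, and Il7r, Flt3, Dntt, Ighm, Mecom and Mcpt8 higher in every CLP replicate. Hba-a1, on its 1 probe set, lies below background throughout.

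Granulocyte and monocyte genes were not higher in CMP. Mpo, myeloperoxidase of the primary granules, was bright in both groups: 10.38, 11.46, 10.72, 10.57 and 11.18 in CMP and 9.46 to 12.68 in CLP, median 11.97. The difference of -0.92 (SE 0.40) was not called (adjusted p 0.114), and it was called without CLP replicate 5, the lowest one (-1.26, adjusted p 4.16e-04). Elane, neutrophil elastase, read 6.83 ± 1.04 and 6.58 ± 0.88 (adjusted p 0.780), and Csf1r, the macrophage growth factor receptor, 7.78 ± 0.30 and 8.51 ± 1.23 (adjusted p 0.325). Wild-type GMP lay far above both groups for these genes, at 13.70 for Mpo, 11.05 for Elane and 11.62 for Csf1r. Of 10 primary granule genes, 0 were called higher in CMP and 3 higher in CLP (median -0.89). They were Serpinb1a (-1.90, adjusted p 9.03e-06), a neutrophil protease inhibitor, Srgn, and Prtn3, proteinase 3, whose call (-0.88, adjusted p 0.0333) was lost in 11 of 29 alternatives. Without CLP replicate 5 the count was 6.

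Of 12 measured granulocyte and monocyte transcription factors, 0 were called higher in CMP and 8 higher in CLP, with a median of -1.21. Maf was at background in every CMP replicate (3.32 ± 0.12) and 5.76 to 8.66 in CLP, at least 4.77-fold higher there. Gfi1, a repressor that acts in granulocytes, stem cells and lymphoid progenitors, read 3.42, 4.56, 4.48, 3.06 and 4.14 in CMP and 6.30 to 7.42 in CLP, median 6.94 (at least 4.72-fold, adjusted p 3.90e-07). Klf4 (-2.91), Cebpb, Egr2, Irf8, Egr1 and Spi1 were the others. Several of these factors also act in lymphoid or activated cells, and the list's name does not say which role they have in CLP.

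The genes behind the sorting markers separated the groups in part. Kit, the stem cell factor receptor, was 8.84, 9.08, 9.34, 9.15 and 8.85 in CMP and 7.03 to 9.13 in CLP, with replicates 6 and 7 the lowest, and was not called (0.59, SE 0.32, adjusted p 0.225). With the control-probe covariate it was called higher in CMP (1.72, adjusted p 0.00802). Cd34 was present in CMP (7.05, 7.86, 6.57, 6.68 and 7.25) but higher in CLP (7.90 to 10.12, median 9.31), by 4.30-fold (adjusted p 1.97e-04). That call was lost with the covariate (-1.25, adjusted p 0.114). Fcgr3, a low-affinity IgG receptor gene, was near background in CMP (4.70 ± 0.28) and 4.52 to 9.003 in CLP, where only replicates 6 and 7 exceeded 5.57. Its difference was not called (adjusted p 0.214). Wild-type GMP stood at 9.25 for Fcgr3. Of 18 cytokine receptor genes, 2 were called higher in CMP (Epor and Ifngr1, the interferon-gamma receptor, 1.19) and 9 higher in CLP, led by Il7r, Flt3, Il18r1 and Csf2rb.

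The early lymphoid genes measured were higher in CLP. All 12 measured members of the early lymphoid list, which holds 14 genes, were called higher in CLP. The share over all genes was 12.1%, and the list's median difference was -3.34. The groups did not overlap for 11 of them, against 2810 of all 18193 genes. Il7r, the receptor for the main lymphoid growth factor, was at background in CMP (3.67, 4.42, 4.48, 3.47 and 3.98) and 7.16 to 10.94 in CLP, median 9.88. It was at least 30.3-fold higher in CLP (difference -5.54, SE 0.49, adjusted p 3.46e-07). Flt3, the receptor of lymphoid-primed progenitors, read 6.90, 7.17, 6.15, 6.16 and 6.78 in CMP and 9.55 to 10.46 in CLP, median 9.96 (10.6-fold, adjusted p 6.31e-09). The CLP replicates lay close together for Flt3, whereas for Il7r replicate 8 stood lowest. Dntt, terminal transferase, which adds bases at antigen receptor joints, read 8.33, 8.23, 7.92, 6.91 and 8.71 in CMP, well above background, and 12.03 to 12.75 in CLP, median 12.29, 19.4-fold higher (adjusted p 2.43e-09). Ccr9, a thymus and gut homing receptor, was below background in every CMP replicate (2.89 ± 0.10) and 6.95 to 10.02 in CLP, at least 12.2-fold higher. Notch1, the receptor that directs T-lineage entry, was 9.62-fold higher in CLP (6.77 ± 0.31 against 10.03 ± 0.45, adjusted p 1.57e-08). Satb1 (-3.06), a chromatin organiser, and Ltb (-4.11), the cytokine lymphotoxin beta, followed the same order. Wild-type HSC stood near CLP for Flt3 (9.86 ± 0.59), Dntt (11.59 ± 0.48) and Notch1 (9.67 ± 0.31, SD, n = 5), so these levels were not particular to CLP. For Il7r (5.05 ± 0.35) and Ccr9 (5.01 ± 1.54) the HSC mean lay below every CLP replicate.

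Of the recombination genes, the lymphoid-specific ones were higher in CLP. Rag1, a subunit of the recombinase that cuts antigen receptor genes, was below background in CMP (3.09, 2.83, 2.66, 2.75 and 3.00) and 3.95 to 8.09 in CLP, median 7.54. It was at least 4.58-fold higher in CLP (adjusted p 4.55e-05), and CLP replicate 8 was the only one below background. Of 9 measured recombination and end-joining genes, Rag1, Rag2 and Dntt were called higher in CLP and Xrcc5, the Ku80 end-joining subunit, higher in CMP (1.01, adjusted p 0.00343). The other 5, general repair genes, were not called, and the list's median of -0.03 changed sign when each replicate was centred on its median (0.09).

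Of 10 measured pre-B cell receptor and signalling genes, 0 were called higher in CMP and 8 higher in CLP, with a median of -2.20. Vpreb1, part of the surrogate light chain, was below background in every CMP replicate (4.16 to 4.33) and 4.88 to 9.71 in CLP, median 8.09, at least 11.7-fold higher (adjusted p 8.04e-05). Igll1, the other surrogate light chain gene, was 4.54 ± 0.15 in CMP and 5.01 to 9.64 in CLP, median 7.33, at least 7.30-fold higher (adjusted p 6.13e-04). For both genes replicate 8 was the lowest CLP sample and replicates 6 and 7 were the highest. Blnk, an adaptor of B-cell receptor signalling, reached at least 11.9-fold and Cd79b, a receptor signalling chain, at least 4.06-fold. The other signalling chain, Cd79a, had a mean below background in both groups (3.65 and 4.35).

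The promoters of 4 genes that were near background in CMP are shown for the E-box CAGGTG, a sequence that E-protein factors bind. Each is again the 250 bases upstream of the RefSeq start site (GRCm38.p6), 5′ to 3′ on the strand of the gene, with matches on either strand in capitals. Rag1 lies at chr2:101649533-101649782 (-), Vpreb1 at chr16:16869256-16869505 (-), Igll1 at chr16:16863986-16864235 (-) and Ccr9 at chr9:123766961-123767210 (+).
Rag1: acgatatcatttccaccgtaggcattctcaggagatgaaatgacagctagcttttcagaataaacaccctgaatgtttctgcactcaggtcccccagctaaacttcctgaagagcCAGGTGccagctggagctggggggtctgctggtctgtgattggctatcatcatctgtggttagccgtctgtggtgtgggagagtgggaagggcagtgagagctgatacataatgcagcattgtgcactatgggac
Vpreb1: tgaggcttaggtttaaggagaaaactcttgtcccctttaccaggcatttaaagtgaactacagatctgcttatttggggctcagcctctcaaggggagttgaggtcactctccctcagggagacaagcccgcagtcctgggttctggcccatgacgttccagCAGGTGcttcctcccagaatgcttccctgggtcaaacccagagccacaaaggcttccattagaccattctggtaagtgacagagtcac
Igll1: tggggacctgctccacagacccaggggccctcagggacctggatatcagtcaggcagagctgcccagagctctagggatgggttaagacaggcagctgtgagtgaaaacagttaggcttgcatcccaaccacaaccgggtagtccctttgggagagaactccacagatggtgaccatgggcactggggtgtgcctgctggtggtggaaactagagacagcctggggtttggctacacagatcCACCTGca
Ccr9: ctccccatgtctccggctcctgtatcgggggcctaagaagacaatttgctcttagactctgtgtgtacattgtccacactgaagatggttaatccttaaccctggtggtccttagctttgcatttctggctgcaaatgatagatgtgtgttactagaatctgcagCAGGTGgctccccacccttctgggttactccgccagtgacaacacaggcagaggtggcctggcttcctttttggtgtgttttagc
Each holds 1 match, ending 130 (Rag1), 83 (Vpreb1), 3 (Igll1) and 80 (Ccr9) bases before the start site. These 4 were chosen because they hold it; Il7r, Dntt, Flt3 and Jchain have an entry and no match. The match occurred in 22.4% of the genes called higher in CLP that have an entry, in 16.3% of those called higher in CMP and in 19.9% of the tested genes. Among the 12 genes with the largest difference towards CLP, 7 have an entry and 2 of these hold it (Ccr9 and Mcpt8). Among the 12 with the largest difference towards CMP, 9 have an entry and 3 of these hold it (Aqp1, Slc38a5 and Tlcd4). A match describes letters in the window, not binding.

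Most of the B-lineage transcription factors that were called were higher in CLP, and Pax5 stayed near background. Of 18 measured, 10 were called higher in CLP and 1 higher in CMP, with a median of -1.04. Id2, an inhibitor of E-proteins, was 16.6-fold higher in CLP (5.20 ± 0.62 against 9.26 ± 1.42, adjusted p 4.60e-05), and CLP replicates 4, 6 and 7 were the highest, from 10.57 to 11.04. Pou2af1, a B-cell coactivator of octamer-binding factors, was at background in CMP (2.51 ± 0.18) and 5.16 to 7.20 in CLP (at least 3.54-fold, adjusted p 1.53e-08). Tcf3, which encodes the E-proteins E12 and E47, was the member higher in CMP (7.92 ± 0.18 against 6.89 ± 0.57, adjusted p 0.00530). Ebf1, the factor that commits cells to the B lineage, was called on the probe set that stood for it (adjusted p 0.00110), whose CLP mean of 4.25 ± 0.68 lay below background, with only replicates 5 and 6 above it. Other Ebf1 probe sets, not tested singly, were brighter in CLP: 1 had means of 2.46 in CMP and 6.08 in CLP and another 2.44 and 4.92, so Ebf1 signal was above background in CLP and not in CMP on these. Pax5, which maintains B-cell identity, was 3.73 ± 0.21 in CMP and 3.91 ± 0.36 in CLP and was not called (adjusted p 0.531).

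The largest differences of the whole comparison were in immunoglobulin genes. Jchain, which joins polymeric immunoglobulins, read 3.07, 6.04, 2.91, 3.00 and 2.59 in CMP and 11.90 to 13.25 in CLP, median 12.22. It was at least 178-fold higher in CLP (difference -8.86, SE 0.44, adjusted p 1.48e-09). Ighm, the mu heavy chain, read 7.23, 7.87, 6.85, 6.48 and 7.80 in CMP and 13.92 to 14.36 in CLP, median 14.04, which is 115-fold higher (adjusted p 5.90e-13). Its CLP replicates lay closer together than its CMP replicates. Igha, the alpha heavy chain, read 9.14 in CMP replicate 2, 4.14 to 4.66 in the other 4 and 12.03 to 13.94 in CLP, median 12.49, a 163-fold difference in means. CMP replicate 2 alone lifted the CMP mean above background: without it the CMP mean was 4.47 ± 0.23 (SD, n = 4) and Igha was at least 280-fold higher in CLP (adjusted p 5.78e-11). The same replicate was the highest for Jchain, which was at least 217-fold higher in CLP without it. Of the variable segments, Igkv8-30 was at least 64.0-fold higher in CLP and Iglv1 at least 15.96-fold. Probe sets of immunoglobulin genes can hybridise to related segments, so single segments are uncertain. The signal was not particular to CLP. Wild-type HSC read 13.84 ± 0.76 for Ighm, 10.94 ± 1.83 for Jchain, 9.54 ± 2.96 for Igha and 9.85 ± 1.49 for Igkv8-30 (SD, n = 5). Wild-type GMP read 10.43 ± 0.44 for Ighm, 3.85 ± 0.91 for Jchain and 5.39 ± 0.33 for Igha (SD, n = 5). Of 5 plasma cell markers, looked at after these values were seen, 4 were called higher in CLP. Sdc1 (syndecan 1) was 6.58 to 8.22 in CLP and below background in CMP (adjusted p 5.77e-08). Xbp1, a factor of secretory cells, was high in both groups and higher in CLP without overlap (9.53 and 10.59, adjusted p 9.54e-04). Irf4, a factor of B and plasma cells, was 3.01 to 3.63 in CMP and 3.80 to 6.36 in CLP (at least 1.42-fold, adjusted p 7.61e-04). Tnfrsf17 was called (adjusted p 0.0068) with a CLP mean of 4.52, below background, and Prdm1 (3.31 and 3.96) was not (adjusted p 0.0503). Of 6 mature B-cell genes, 1 (Ms4a1, CLP mean 4.20, below background) was called higher in CLP, against 12.1% of all genes. That count was 0 without CMP replicate 2 and 2 without CLP replicate 6. The part of plasma or B cells in the immunoglobulin values was not tested.

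Early T-lineage factors were higher in CLP, while the 3 CD3 chains measured were not called. Of 17 measured T-lineage genes, 0 were called higher in CMP and 6 higher in CLP (median -0.31), and 4 had a mean above background in CMP against 8 in CLP. Gata3, an early T-lineage factor, was below background in CMP (3.69 ± 0.10) and 5.08 to 7.78 in CLP, at least 2.58-fold higher, and Bcl11b, a T-commitment factor, was 3.78 to 8.52 in CLP, at least 2.73-fold higher. For both, CLP replicate 7 was the highest. Cd28, a costimulatory receptor, was also called (-2.01). Cd3e, a chain of the T-cell receptor complex, was 4.62 ± 0.21 in CMP and 4.55 ± 0.34 in CLP and was not called (adjusted p 0.826). Of 12 cytotoxic and natural killer genes, 3 were called higher in CLP, among them Nfil3, at least 1.30-fold, and Klrd1, at least 1.35-fold, whose call was lost in 7 of 29 alternatives. Of 7 dendritic cell genes, only Zbtb46 was called, a share near the 12.4% of all genes called higher in CMP. Zbtb46, a factor of conventional dendritic cells that is also found in erythroid progenitors, was 3.96-fold higher in CMP (6.77 ± 0.30 against 4.78 ± 0.32, adjusted p 6.74e-07).

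**Figure D3:**
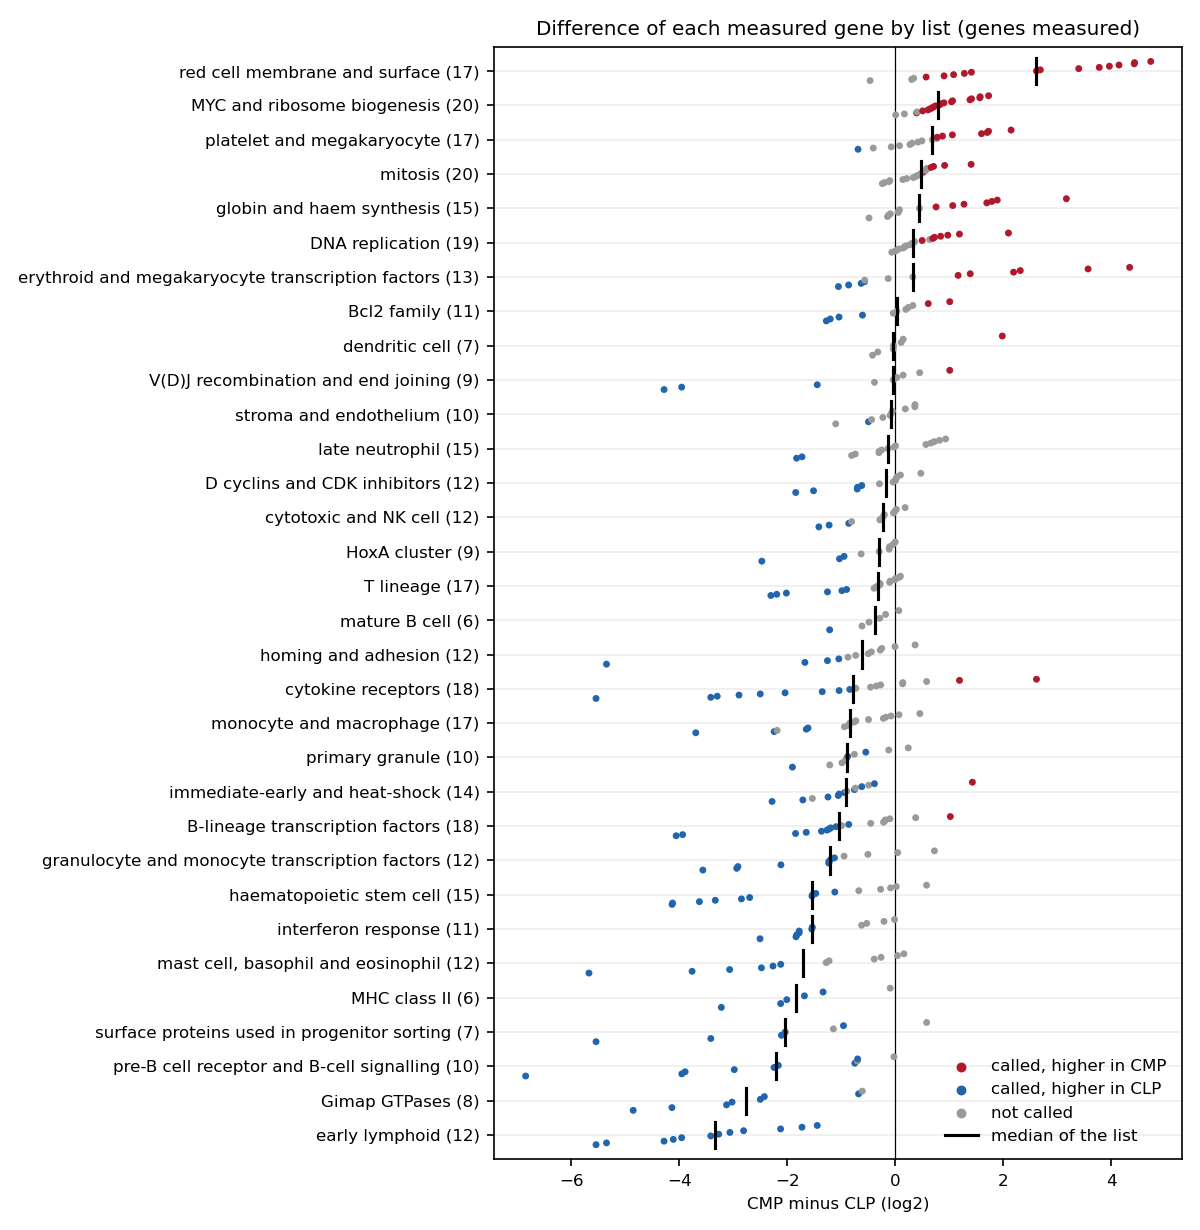
Difference of each measured gene (horizontal axis, CMP minus CLP, log2) by gene list, with the number of genes measured in brackets and the list median as a black bar. Red and blue points were called higher in CMP and CLP and grey points were not called; the medians run from 2.62 (red cell membrane and surface) to -3.34 (early lymphoid), beside 0.02 over all genes.

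Genes known from stem cells were also higher in CLP. Of 15 measured members of the haematopoietic stem cell list, 10 were called higher in CLP and 0 higher in CMP, with a median of -1.53. Mecom, a zinc-finger factor of long-term stem cells, was 4.03 to 4.63 in CMP and 6.60 to 9.32 in CLP, median 8.61, at least 13.9-fold higher (adjusted p 1.83e-07), with replicate 7 the lowest. Procr, the endothelial protein C receptor, was 4.13 to 4.71 in CMP and 7.88 to 9.996 in CLP, median 8.49, at least 15.2-fold higher (adjusted p 4.28e-08). Wild-type HSC stood at 8.77 ± 0.79 for Mecom and 8.56 ± 0.86 for Procr (SD, n = 5), within the range of the CLP replicates. Hlf (-3.62), Fgd5 and Prdm16 behaved alike. With the control-probe covariate 6 of the 15 were called. Hoxa9, a homeobox gene of stem and early progenitor cells, was 5.53-fold higher in CLP (9.13 ± 0.26 against 11.60 ± 0.55, adjusted p 6.37e-07), and 3 of 9 HoxA genes were called. The other 2, Hoxa2 and Hoxa10, had means below background in both groups.

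Gimap genes, small GTPases of lymphocyte survival, moved together: 7 of 8 were called higher in CLP, with a median of -2.76. Gimap8 read 4.99, 5.42, 5.07, 4.34 and 4.68 in CMP and 8.50 to 10.52 in CLP, median 9.94 (28.9-fold, adjusted p 8.55e-09). Gimap4 was below background in CMP and at least 5.15-fold higher in CLP. Wild-type HSC stood at 9.30 ± 0.63 for Gimap8, near CLP, and at 4.56 ± 0.20 for Gimap4 (SD, n = 5). P2ry10, a lysophospholipid receptor of lymphocytes, was at least 5.60-fold higher. Of 12 homing and adhesion genes, 4 were called higher in CLP, Ccr9, Itgal (-1.67, an integrin chain of leukocytes), Cxcr4 and Selplg. Cxcr4 lost its call without CMP replicate 1, 2, 4 or 5 and with the second runs of CMP (-0.93, adjusted p 0.123). Of 6 antigen presentation genes of MHC class II, 5 were called higher in CLP, led by H2-Aa (5.49 to 6.96 in CMP, 7.59 to 11.26 in CLP, median 9.21, 9.30-fold) and H2-Eb1 (at least 3.37-fold). The transactivator Ciita was below background in both groups.

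Markers of other myeloid cells varied among the CLP replicates. Of 12 mast cell, basophil and eosinophil genes, 6 were called higher in CLP and 0 higher in CMP, with a median of -1.70. Mcpt8, a basophil protease, read 4.85, 4.56, 4.18, 4.29 and 5.56 in CMP and 9.88, 9.25, 8.60, 10.53, 9.52, 12.42, 13.25 and 9.41 in CLP replicates 1 to 8 (50.9-fold, adjusted p 5.08e-06). Fcer1a, the alpha chain of the IgE receptor, was below background in CMP and 5.61 to 9.95 in CLP, at least 4.88-fold higher, again highest in replicates 7 and 6. Ms4a2, the beta chain, reached 11.36 and 12.16 in CLP replicates 6 and 7 and 8.47 to 9.44 in the other 6. The mean level of the list was 4.26 to 4.44 in CMP and 5.44 to 8.50 in CLP. Wild-type HSC read 8.42 and wild-type GMP 8.28 for Mcpt8. Without CLP replicates 6 and 7 the same 6 of 12 genes were called, and the median was -1.02. Other alternatives changed the calls of Hdc and Prg2, which were among the 6. Hdc lost its call without CMP replicate 1 or 4 and on the mean of its probe sets (adjusted p 0.0635). Prg2 lost it without CMP replicate 1, 2 or 4 and with the control-probe covariate (adjusted p 0.0614).

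The monocyte and macrophage list had 4 of 17 genes called higher in CLP (median -0.84). Ctss, the lysosomal protease cathepsin S, was even in CLP (10.10 to 10.79, median 10.37) and 12.9-fold lower in CMP (6.69 ± 0.42, adjusted p 1.26e-09). Tyrobp, a signalling adaptor, was 6.16 to 6.95 in CMP and 7.34 to 11.40 in CLP, highest in replicates 7 and 6 (adjusted p 0.00872). C1qb, a complement gene of tissue macrophages, was below background except in CLP replicate 7 (7.06). The list's summed level, as its mean, was 4.89 to 5.41 in CMP and 5.44 to 7.36 in CLP. With the control-probe covariate 8 of 17 were called. Late neutrophil genes varied widely within both groups, and 2 of 15 were called, a share near the 12.1% of all genes, both higher in CLP, Lyz2 (lysozyme, -1.82, adjusted p 0.00181) and Cybb (-1.72, adjusted p 0.0364, lost in 13 of 29 alternatives). The count was 1 without any one of CMP replicates 1, 3, 4 and 5 and CLP replicates 4 and 8. Ngp, a neutrophil granule protein, read 9.33 and 9.19 in CMP replicates 2 and 5, 12.10 in CLP replicate 6 and 4.07 to 9.08 in the other CLP replicates. Without CLP replicates 6 and 7, 3 were called higher in CMP and 1 higher in CLP. Of 10 stroma and endothelium genes, 1 was called higher in CLP, a share near the 12.1% of all genes. It was Pecam1, with both means below background, and it lost its call without CMP replicate 3, 4 or 5. Without CLP replicates 6 and 7, all 12 early lymphoid genes and the same 10 of 15 stem cell genes were called. The part of other myeloid cells in the CLP values was not tested.

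**Figure D4:**
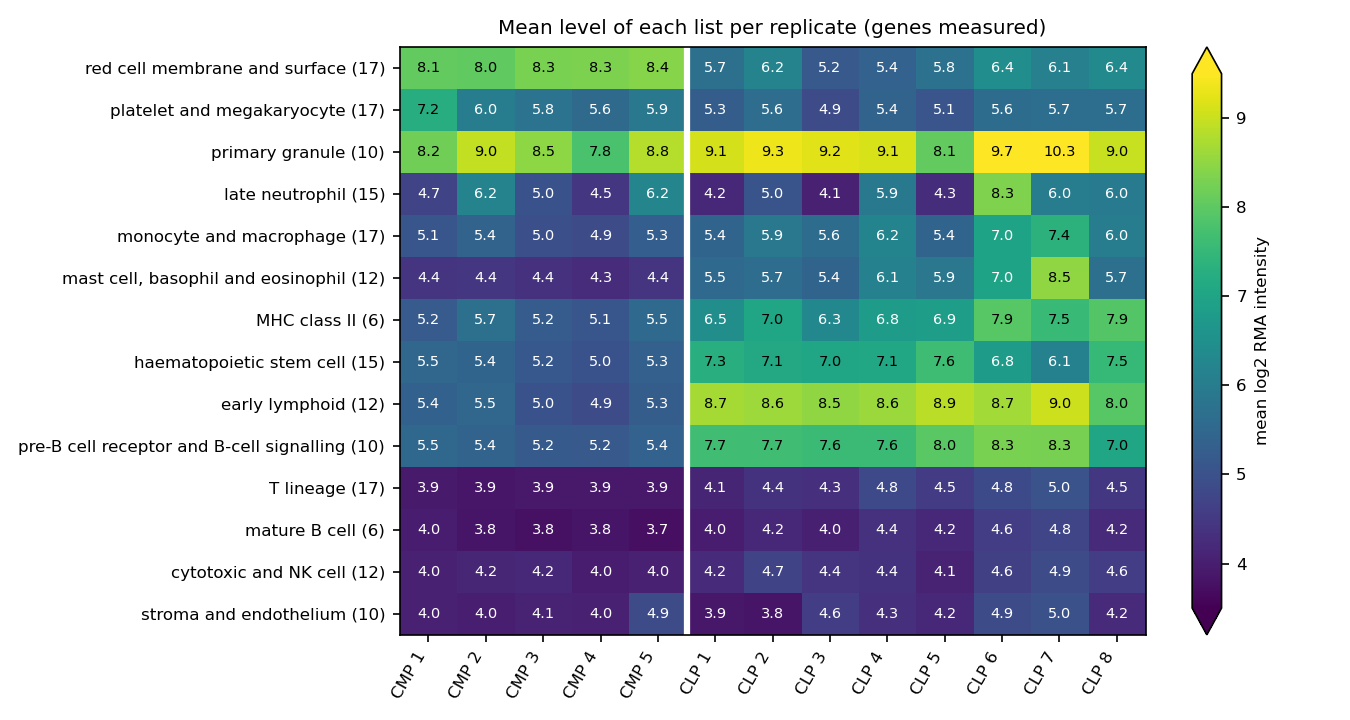
Mean log2 RMA intensity of 14 gene lists (rows, genes measured in brackets) in each of the 13 replicates (columns), colour scale from 3.5 to 9.5. CLP replicates 6 and 7 are highest for the mast cell, basophil and eosinophil list (7.0 and 8.5) and the monocyte and macrophage list (7.0 and 7.4), and CMP replicate 1 is highest for platelet genes (7.2).

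Ribosome biogenesis was higher in CMP. Of 20 measured MYC and ribosome biogenesis genes, 17 were called higher in CMP and 0 higher in CLP, with a median of 0.79. Nolc1, a nucleolar assembly protein, read 9.31, 9.43, 9.49, 9.43 and 9.63 in CMP and 7.10 to 8.39 in CLP, median 7.68 (3.32-fold, adjusted p 4.72e-06). Polr1b, the second largest subunit of RNA polymerase I, was 2.98-fold higher (8.03 ± 0.21 against 6.46 ± 0.69, adjusted p 5.96e-04). The 3 not called were Myc, Myb and Odc1. The count was 17 under quantile normalisation of the 13 replicates, under both other centrings and without CLP replicates 6 and 7, and 13 with the control-probe covariate.

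Cell cycle genes were high in both populations and leaned towards CMP. Of 19 DNA replication genes, 7 were called higher in CMP and 0 higher in CLP (median 0.34), and the count was 3 or 4 without any one of CMP replicates 1, 2, 4 and 5. Ccne1, the cyclin that starts S phase, was 4.29-fold higher (9.34 ± 0.13 against 7.24 ± 0.66, adjusted p 2.25e-05), and Cdc6, a licensing factor, 2.29-fold (adjusted p 9.34e-04). Of 20 mitosis genes, 5 were called higher in CMP and 0 higher in CLP (median 0.48), among them Cenpa, the centromeric histone, 2.66-fold (adjusted p 3.27e-06), and Plk1, 1.89-fold, a call lost in 5 of 29 alternatives. The mitosis count was 2 or 3 without CMP replicate 5 or 4, 1 with the control-probe covariate and 10 with each replicate centred on its median. Of 12 D cyclins, their kinases and CDK inhibitors, 0 were called higher in CMP and 5 higher in CLP (median -0.16), namely Ccnd2, Cdkn1b, Cdkn2d, Cdkn1a (p21), which read 7.09, 7.94, 6.68, 6.69 and 7.12 in CMP and 8.56 to 9.81 in CLP, median 8.83 (3.58-fold, adjusted p 1.93e-05), and Cdkn1c (p57), at least 2.00-fold. That count was 3 without CMP replicate 4, CMP replicate 5 or CLP replicate 5, and 2 with the control-probe covariate.

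Survival genes of the Bcl2 family moved in both directions. Of 11 measured, 4 were called higher in CLP and 2 higher in CMP, with a median of 0.03 that changed sign when replicates were centred on bright genes (-0.01). Among the former were the protective members Mcl1 (2.42-fold, adjusted p 2.81e-06), Bcl2l1 and Bcl2 (2.05-fold, adjusted p 0.00384). The pro-apoptotic Pmaip1 was also among them, with both means below background. With the control-probe covariate Bcl2 (-0.24, adjusted p 0.704) and Bcl2l1 (-0.63, adjusted p 0.168) lost their calls. Bcl2l1 also lost its call on the mean of its probe sets (-0.18, adjusted p 0.268). The 2 higher in CMP, Bid (2.02-fold) and Bak1 (1.53-fold), promote apoptosis.

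Interferon and immediate-early genes were higher in CLP. Of 11 measured interferon response genes, 7 were called higher in CLP and 0 higher in CMP (median -1.54), led by Ifitm1 (9.20 ± 0.52 against 11.70 ± 0.28, 5.66-fold, adjusted p 8.53e-08), a membrane antiviral protein, and Ifi27l2a (at least 3.07-fold). Of 14 immediate-early and heat-shock genes, which also respond to handling of cells, 9 were called higher in CLP and 1 higher in CMP (median -0.91). Nr4a1, an orphan nuclear receptor, was 4.85-fold higher in CLP (7.61 to 8.62 against 9.90 to 11.02, median 10.39, adjusted p 1.07e-06) and Zfp36, an mRNA decay factor, 3.27-fold. Hsph1, a heat-shock chaperone, was the member higher in CMP (2.70-fold, adjusted p 9.90e-05). The part of sorting and handling was not tested.

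The same contrast was computed in Mll-AF9 cells, with 4 CMP and 7 CLP replicates that share no sample with the wild-type groups. There, limma called 1423 genes higher in CMP (7.82%) and 1755 higher in CLP (9.65%). Of the wild-type genes higher in CMP, 1187 were also called higher in Mll-AF9 CMP, which is 52.5% of the wild-type list and 83.4% of the Mll-AF9 list. On the CLP side 1359 genes were shared, 61.8% of the wild-type and 77.4% of the Mll-AF9 list. Of the 4460 wild-type calls, 4362 had the same sign and 1 was called in the opposite direction. All 7 Mll-AF9 CLP replicates carry a source name that refers to CMP, as CLP replicate 1 does here. The Y-linked gene Eif2s3y was at background in Mll-AF9 CMP (2.56 ± 0.18) and CLP (2.47 ± 0.10, SD, n = 4 and 7). Both wild-type groups held samples with and without Y-linked signal, so this signal differs in part with genotype, and its effect was not tested. Klf1 differed by 3.52 (adjusted p 1.22e-04) and Il7r by -5.34 (adjusted p 3.10e-05) in Mll-AF9 cells. Vpreb1 (-0.58, adjusted p 0.123), Igll1 (-0.49, adjusted p 0.450) and Ebf1 (-0.29 on the dim probe set, adjusted p 0.342) were not called there, and for none of the 3 was the difference between genotypes called.

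The difference of the contrast between genotypes was called for 7 genes (0.0385% of those tested). Mecom, Prdm16 and Hoxa9 of the stem cell and HoxA lists were among them. The CMP minus CLP difference of Mecom was -4.12 in wild-type and -1.84 in Mll-AF9 cells (change 2.28, SE 0.42, adjusted p 0.0253), that of Hoxa9 -2.47 and -0.84 (change 1.63, SE 0.30, adjusted p 0.0253), and that of Prdm16 -2.85 and -0.35 (change 2.49, SE 0.42, adjusted p 0.0199). For Mecom and Hoxa9, Mll-AF9 CMP stood at 8.22 ± 0.25 and 11.55 ± 0.26 (SD, n = 4), above the wild-type CMP at 4.30 ± 0.24 and 9.13 ± 0.26. The number of genes called depended on single samples: it was 1 without wild-type CMP replicate 3 and 1 without any one of Mll-AF9 CMP replicates 2, 3 and 4, and 10 without wild-type CLP replicate 8. It was 2 to 4 without wild-type CMP replicate 2 or 4, wild-type CLP replicate 1, Mll-AF9 CMP replicate 1 or Mll-AF9 CLP replicate 2.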

How the data were processed

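Total RNA of sorted cells was extracted, amplified in 2 labelling cycles and hybridised to Affymetrix arrays, per the labels' protocols. The authors deposited linear intensities of probe sets, made with RMA according to the submitters' processing notes. Its version, and whether CMP and CLP arrays went through it in 1 batch, is not given in the sources used here. Log2 of each deposited intensity was taken, and runs of a replicate were averaged. Of 45101 probe sets, 64 controls were left out and 34945 had 1 gene in the platform annotation, with symbols updated from the GRCm38.p6 gene table. A gene was represented by its probe set with the highest mean. Background was the 95th percentile of 112 genes of olfactory, taste and vomeronasal receptors and of keratin-associated proteins. Arrays have no depth, and their number limits the precision.

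Groups were compared with limma 3.58.1 (R 4.3.3; lmFit and trended eBayes), fitted on the 13 replicates without block or covariate, with Benjamini-Hochberg adjustment over 18193 genes. The contrast in Mll-AF9 cells was fitted on the CMP and CLP replicates of that genotype only. The difference between genotypes used all 4 groups. The fit was tested on simulated data. Named genes were the 12 largest called differences per direction with the brighter group above background and no clone name, up to 2 called genes per list and direction, a set of lineage genes regardless of call and the sex-linked genes. Other members named beside a list's count were named after their values were seen. The members and lists were chosen with earlier results of these data known. The labels do not say what a shared replicate number means. Alternatives changed scaling, run, filter, probe set choice, trend, weights, covariates, block and replicates.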

Additional observations from a re-analysis of the deposited data

Results flagged for a closer look

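In the groups of 5 CMP and 8 CLP replicates, 10 of 190 gene and group combinations held a sample set apart from the others by Dixon's criterion, and chance flags about 1 in 20. In CMP, Igha (9.14) and Jchain (6.04) were high in replicate 2, and Epor was highest in replicate 5 (8.19). In CLP, Mecom was low in replicate 7 (6.60), Mpo in replicate 5 (9.46), Notch1 in replicate 6 (9.02), Plek in replicate 3 (8.24) and Vpreb1 in replicate 8 (4.88). Pax5 was highest in CLP replicate 5 (4.74) and Zbtb46 in CLP replicate 6 (5.49).

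The CMP minus CLP difference of 7 genes was called different between Mll-AF9 and wild-type cells by limma's test of the difference. Wild-type CLP were called higher than wild-type CMP for 5 of them, and in Mll-AF9 cells that gap was smaller or turned. The signed difference went from -4.12 to -1.84 for Mecom (change 2.28), from -2.85 to -0.35 for Prdm16 (change 2.49) and from -2.47 to -0.84 for Hoxa9 (change 1.63), and it changed sign, from -1.37 to 0.66 for Cnn3 (change 2.03) and from -1.28 to 0.40 for Fhl1 (change 1.68). The gap towards CLP was wider in Mll-AF9 cells for the granzyme gene Gzma (-0.24 to -3.80, change -3.56, adjusted p 6.74e-04) and the gamma T-cell receptor segment Trgv4 (-0.95 to -4.77, change -3.82, adjusted p 0.0253). In Mll-AF9 cells Gzma read 7.76 ± 0.89 in CLP (SD, n = 7) and 3.96 ± 0.30 in CMP (SD, n = 4), while its wild-type difference of -0.24 was not called (adjusted p 0.526).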

How the results depend on the processing

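There were 29 alternatives, and among the called genes named by the rule only Ebf1 was tested in fewer (28). Of 83 called genes named by the rule, 73 kept their call and direction in every alternative that tested them. The other 10 lost the call in at least 1, and none of the 83 changed sign in any of them. Of those not called, Csf1r, Fcgr3, Kit and Mpo were called in at least 1. The counts of 2260 genes higher in CMP and 2200 higher in CLP ran from 1773 to 2445 and from 1819 to 2358 when 1 replicate was left out. Centring on each replicate's median gave 3624 and 1806. The control-probe covariate, which follows the groups and takes a degree of freedom, gave 1293 and 1251, of which 1027 and 1066 were among the main calls. A 2-fold minimum left 737 and 1155. Without CLP replicates 6 and 7, an alternative chosen after seeing the data, 2512 and 2571 were called, and without replicates 6, 7 and 8, 2609 and 2583. The replicate block gave 2248 and 2426. Deviations of same-numbered CMP and CLP samples correlated from -0.25 to 0.12, and 1 of 5 CMP replicates matched its own number best. These correlations are between different cell populations and cannot decide whether same-numbered samples share a mouse or a day. The 7 genes whose contrast differed between genotypes became 1 to 10 when 1 replicate was left out. Of 53 other probe sets above background of called named genes, 50 had the same sign. Signal over background limits genes with both groups near 4.62, and 367 called genes had both means below it.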
